A study of Mus musculus with 2 samples.

Results

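The cytosolic ribosomal protein genes encode the proteins of the small (Rps) and large (Rpl) subunits of the cytoplasmic ribosome. They were chosen by name alone, as protein-coding rows whose symbol is Rps or Rpl followed by a digit, a final a or a p, leaving out the S6 kinase genes (Rps6k) and pseudogenes named -ps. The rule found 87 of 55401 gene rows, 35 of the small and 52 of the large subunit. Structural ribosomal proteins are encoded by 77 of them, 31 in the small and 46 in the large subunit. The other 10 are paralogues, retrotransposed copies or genes that share only the name pattern. Of the 87 rows, 84 had a mean of 1 FPKM or more (fragments per kilobase of exon, scaled for depth, the authors' level per length) and entered the ratios. The 3 rows under that minimum were Rpl10l, Rpl39l and Rps23rg1.

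Ribosomal proteins are imported into the nucleolus and assembled on ribosomal RNA in near-equal amounts, so the genes of both subunits are usually expressed together. Their messenger RNAs are short and abundant, and most begin with a run of pyrimidines (the TOP motif), through which mTOR signalling and the RNA-binding protein LARP1 control how much they are translated. Such messages have also been copied back into the mouse genome many times, and the resulting processed pseudogenes lack introns and can match the coding sequence of the parent gene almost letter for letter.

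Poly(A) RNA was sequenced from myeloid-derived suppressor cells (MDSCs), immature neutrophil-like and monocyte-like cells that expand in tumour-bearing hosts. Magnetic sorting (MACS) recovered them from C57BL/6 mice aged 8 weeks with tumours of the mouse colon carcinoma line MC38, and a 24 h co-culture with the same line followed. The control library was Mettl3fl/fl and the other was LysM-cre, Mettl3fl/fl, so both genotypes share floxed alleles of Mettl3, which encodes the catalytic subunit of the m6A writer. LysM-cre expresses Cre from the Lyz2 locus, active in monocytes, macrophages and neutrophils. A label of the second library gives MC39 in place of MC38. The design text mentions replicates, but 1 library stood for each genotype here, and whether mice were pooled is not given. Differences therefore have no replicate check, no test was made, and every interval, given in square brackets, is an exact (Clopper-Pearson) 95% interval that covers counting error only.

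The libraries held 59506878 and 59393864 counts. Mettl3 counted 1413 in the control library (below, the control) and 1333 in that labelled LysM-cre, a depth-scaled count ratio (CPM, counts over the library total) of 0.945 [0.876 to 1.02], so it was not lower beyond counting error. Its row overlaps Tox4, and which exons are floxed is not in the labels. For this reason the second library is named by its label throughout. Neutrophil markers were all detected (11 of 11 at a mean of 1 FPKM or more, 9 lower, summed level 13928 CPM in the control and 12079 in that labelled LysM-cre), as were monocyte and macrophage markers (10 of 10, 7 higher and 3 lower, 14683 and 11612 CPM). Lyz2, the LysM gene itself and 1 of these 3, held 474780 and 263725 counts (CPM ratio 0.557 [0.554 to 0.559]). Its fall in CPM exceeded that of the summed level, so the other markers of that list were higher in sum. Markers of other cells were present too. B and plasma cell markers stood at 15868 and 13048 CPM (11 of 11, 1 higher and 10 lower). Among them Ighm held 358894 counts in the control and 170979 in that labelled LysM-cre, and Jchain 42817 and 93047. No other marker of that list was at 2-fold. T and NK cell markers stood at 733 and 763 CPM (9 of 10), and erythroid markers at 878 and 1214 CPM (8 of 8, all higher). Epithelial markers, which MC38 cells could bring, summed to 13.6 CPM in each library, with Cdx2, Krt19 and Krt20 at 0. A pair of rows named CT010467 took 1.69% of the counts in the control and 2.59% in the other library, a ratio of 1.54. What these rows encode was not examined, and their counts are part of the library totals that scale CPM. In bulk RNA, fewer cells of a type and less RNA per cell cannot be told apart, and the part of these shifts in the ribosomal protein values was not tested.

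Ribosomal protein genes were abundant in both libraries and lay at nearly the same level. The 87 rows together took 3.83% of all counts in the control and 4.02% in that labelled LysM-cre, on 2277550 and 2386604 counts, a ratio of 1.0499 [1.048 to 1.0518]. The small subunit took 1.75% and 1.81% (ratio 1.0359 [1.0331 to 1.0387]) and the large subunit 2.08% and 2.21% (ratio 1.0616 [1.059 to 1.0642]). The ratio was thus larger for the large subunit beyond counting error. Without the 4 rows that were at least 2-fold higher, a choice made after their values were seen, the ratio over all members was 1.03 and that of the large subunit 1.04. The nuclear-encoded mitochondrial ribosomal protein genes, 78 rows of a separate ribosome, took 0.155% and 0.162% of the counts, also a ratio of 1.05.

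Most members of each subunit were slightly higher in the library labelled LysM-cre. The log2 ratio is given on the scale of FPKM + 1, which understates differences of low genes. Its median over the 84 members was 0.05, with 64 higher and 20 lower, beside a median of 0.00 over all 12526 rows at 1 FPKM or more (6295 higher and 6231 lower). For the 34 small subunit rows the median was 0.08 (27 higher, 7 lower), and for the 50 large subunit rows it was 0.04 (37 higher, 13 lower). The middle of the distribution was narrow, with an interquartile range of 0.11 in members against 0.23 in all rows and 0.19 in rows at 10 FPKM or more. At this depth counting error is small: the interval of the CPM ratio lay above 1 for 53 of the 77 structural members, below 1 for 16 and across 1 for 8. Those intervals compare these libraries, not the genotypes.

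Few members differed by much, but the share that was 2-fold higher was above that of all rows. At least 2-fold higher were 4 of 84 members (Rpl29, Rps27rt, Rpl21 and Rpl41), beside 1.31% of all rows (164 of 12526). Among protein-coding rows it was 59 of 10250, a smaller share still. At least 2-fold lower were 0 members, beside 1.18% of all rows and 50 of 10250 protein-coding rows. At 1.5-fold, 5 of 84 members were higher, beside 3.19% of all rows, and 0 lower, beside 3.28%. With a minimum mean of 10 FPKM, 3 members were 2-fold higher and 0 lower, beside 1.47% and 1.13% of all rows. The members nearest to the 2-fold line from below were Rps10 at a log2 ratio of 0.85 and Rplp0 at 0.56. The 79 members not counted at 1.5-fold, Rplp0 among them, lay within that range. Summed with their near-identical copies (a step chosen after seeing the data), 2 members were at least 2-fold higher, Rpl41 and Rps27rt. Members do not count as copies, so Rps27, identical in coding sequence, was not added to Rps27rt. That pair together had a CPM ratio of 1.01.

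**Figure D1:**
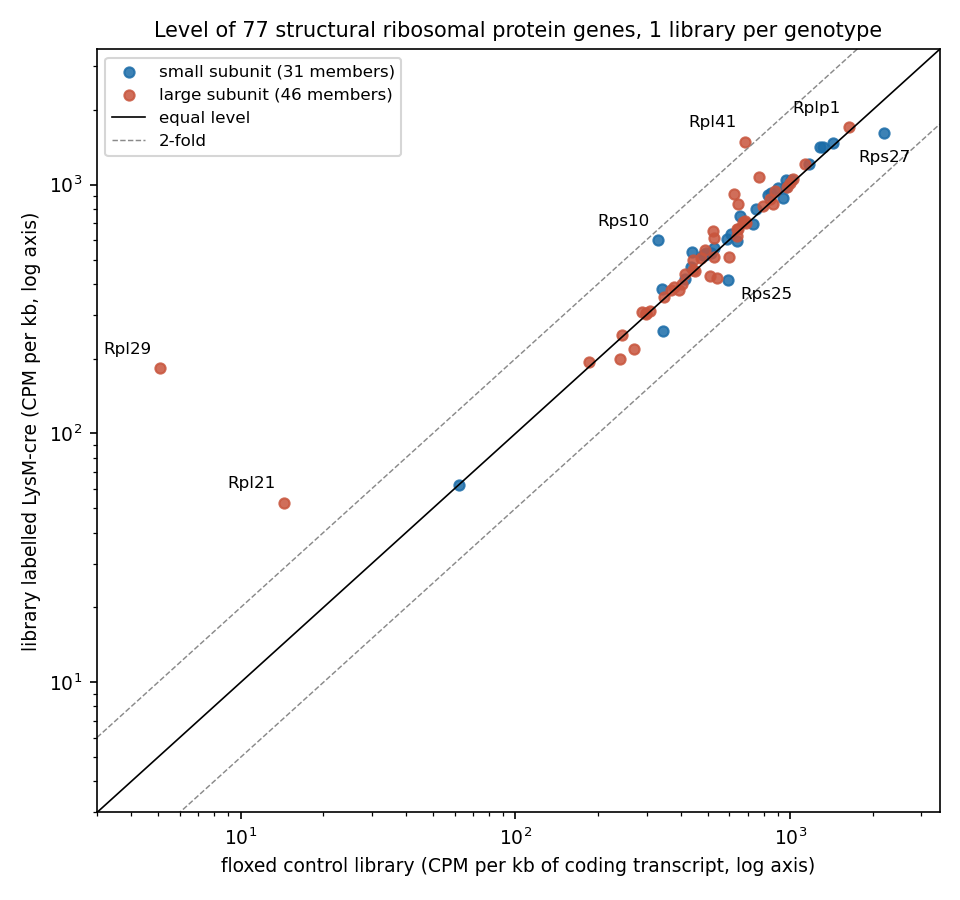
Level of each structural member in the floxed control library (x axis) and the library labelled LysM-cre (y axis), in CPM per kilobase of coding transcript on log axes, with blue points for 31 small subunit and red points for 46 large subunit genes. Most points lie on the line of equal level, and Rpl29, Rpl21 and Rpl41 lie above the upper dashed line, which marks 2-fold.

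Levels spread widely among the structural members although the ribosome uses their products in near-equal amounts. By deposited FPKM the lowest in the control was Rpl29 at 2.32 and the highest Rplp1 at 1463, with a median of 186. In the library labelled LysM-cre the lowest was Rpl21 at 12.4, the median 195 and the highest again Rplp1 at 1517. In the control, near-identical copies held 98.7% of the counts of Rpl29 and its copies. For Rpl21 the copies held 94.0% in the library labelled LysM-cre. Both low values are thus those of the gene's own row only. Among the 10 members with the highest mean FPKM were Rplp1, Rps15, Rps3a1, Rps29, Rpl4, Rpl19, Rps6, Rpl8 and Rps27. Rplp1 encodes an acidic protein of the ribosomal stalk, which recruits translation factors. Rps15, in the head of the small subunit, measured 908 FPKM in the control and 1006 in that labelled LysM-cre. Rps6, the protein phosphorylated by the S6 kinases, stood at 579 and 597 FPKM. Rpl4, a protein of the exit tunnel, stood at 665 and 669 FPKM, and Rpl8, which lies near the catalytic centre, at 570 and 589. Of these 9 named members only Rps27 and Rps3a1 (837 and 788 FPKM) were lower in the library labelled LysM-cre. The copies of Rps3a1, such as Rps3a2, held 5922 and 11690 counts, and with them its log2 ratio was 0.06 in place of -0.09.

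The spread in FPKM depends on the length used. The length implied by count and FPKM was 1.12 to 1.13 times the union of all annotated exons of a row in GENCODE M21, and 61 of the 77 structural members carry a retained-intron transcript that lengthens this union. The union was 1781 bases at the median, against 729 bases for the coding transcript. Per kilobase of the coding transcript, the median of the structural members was 591 CPM in the control and 597 in that labelled LysM-cre. Small subunit genes had a median of 639 and 632, and large subunit genes 524 and 514. On this scale Rps27 was the highest in the control (2199 CPM per kilobase) and Rplp1 in the other library (1703). Rps20, at 62.3 in each library, was the lowest of the small subunit, and its only annotated coding transcript is 3706 bases long. The order of neighbours in level changed with the length chosen, so only wide differences in level are given.

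Near-identical copies held a large share of the reads. Of all other rows, 1012 had a GENCODE transcript that matched the coding sequence of a member at 90% identity or more over at least 80% of its length. Processed pseudogenes made up 960 of them, and 650 had counts. At least 1 such copy existed for 80 of the 87 members. The copies took 0.846% of all counts in the control and 0.854% in that labelled LysM-cre, and so 18.1% and 17.5% of the counts of members and copies together. A stretch of 150 or more identical bases, the length of 1 read, was shared with the member by 262 copies. The sources used here do not say how reads that fit several rows were assigned, and the part of read assignment in the divisions described here was not tested. Ratios of sums with copies are ratios of CPM. For Rpl21, Rpl29, Rpl17 and Rpl7a the copies held most of the counts, at 95.9%, 79.3%, 82.2% and 74.3% over both libraries. Rps3, Rpl8 and Rps27 had no copy with counts under this rule, for Rps27 because matches shared by Rps27 and Rps27rt were assigned to Rps27rt.

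The larger differences sat mainly in members with many copied reads, which hold 11 of the 18 structural members that differed by 0.2 or more on the log2 scale. Among the 22 structural members whose copies held 20% or more of the reads, the median absolute log2 CPM ratio was 0.19 for the row alone and 0.09 after the copies were added. Among the 22 with under 5% on copies it was 0.08 either way. Over all 77 structural members the range of the log2 ratio was -0.52 to 5.17 for rows alone and -0.49 to 1.14 for sums with copies, while the median stayed at 0.05 (63 higher, 14 lower in the sums). Of 18 structural members that differed by 0.2 or more on the log2 scale, 14 came nearer to level in the sum and 8 lay under 0.2, beside 44 nearer to level of all 77. These 18 were chosen for their row ratios, and adding any row with a ratio nearer to 1 brings such a member nearer to level. Among the 17 of them whose copies held 1000 counts or more, the copies lay on the opposite side of level in 9. Over all 68 structural members with copies at that count, this was so in 26. The copies themselves scattered widely, with a median absolute log2 ratio of 0.23 over the 377 kept and 19 at least 2-fold higher and 7 lower. The value was 0.24 over 916 processed pseudogene rows of any parent, a set that includes many of these copies. Of those 916 rows, 31 were at least 2-fold higher and 24 lower. Over all rows the shares were 1.31% and 1.18%. Added to their members, the copies brought the subunits closer, at a ratio of 1.0396 for the small and 1.0445 for the large subunit. These sums were defined after the data had been seen.

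**Figure D2:**
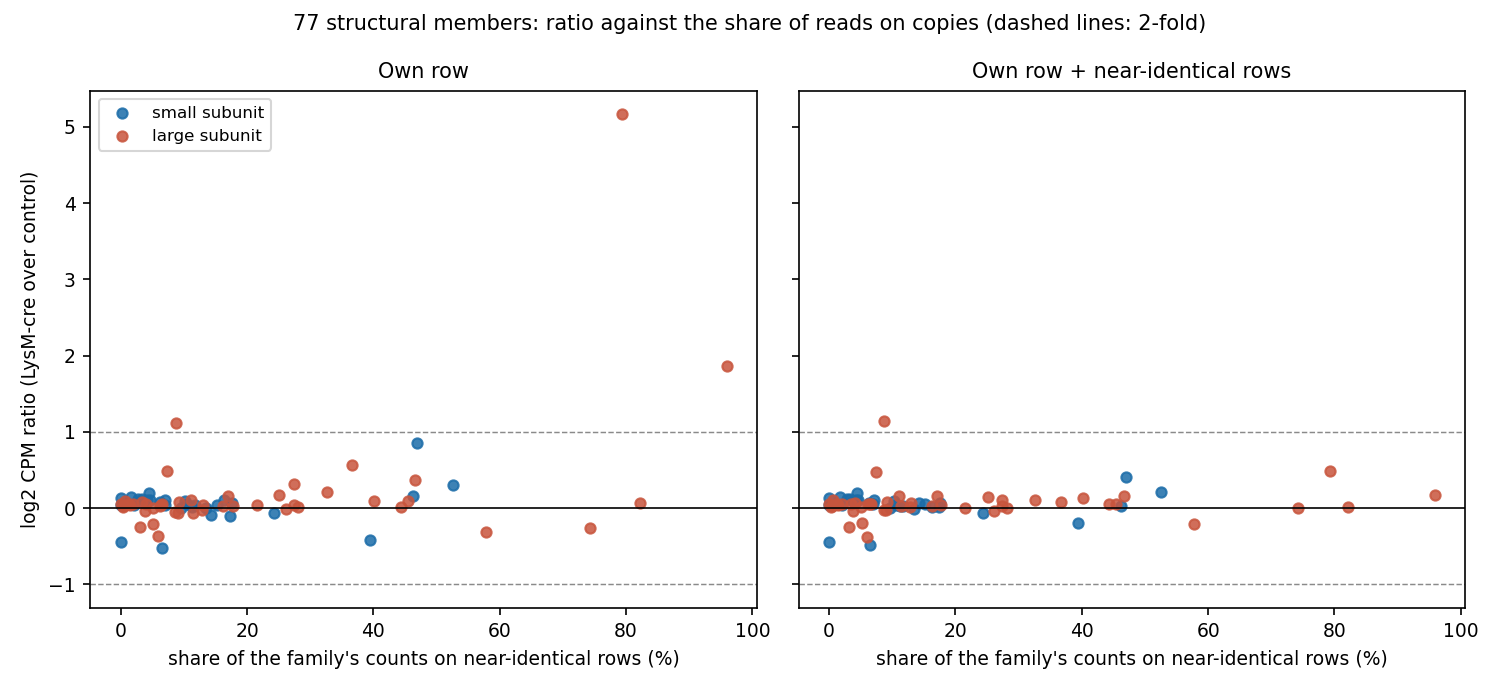
Log2 CPM ratio (library labelled LysM-cre over control, y axis) of the 77 structural members against the percentage of a member's and its copies' counts that lay on the copies (x axis), for the member's own row (left) and for the sum with its copies (right). The points above 1 on the left at 79.3% and 95.9% are Rpl29 and Rpl21, and both lie under 1 on the right, where only Rpl41 stays above it.

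Rps27 and its retrotransposed copy Rps27rt divided their reads differently in each library. Rps27 (ENSMUSG00000090733, chr3:90212522-90213648, mm10, minus strand) encodes a zinc-finger protein of the small subunit, also called metallopanstimulin. Rps27rt (ENSMUSG00000050621, chr9:114982366-114982739, minus strand) is an annotated gene without introns. Their coding sequences are shown because no base differs between them over 255 of 255 positions, so nothing is in capitals (GENCODE M21, GRCm38).
Rps27: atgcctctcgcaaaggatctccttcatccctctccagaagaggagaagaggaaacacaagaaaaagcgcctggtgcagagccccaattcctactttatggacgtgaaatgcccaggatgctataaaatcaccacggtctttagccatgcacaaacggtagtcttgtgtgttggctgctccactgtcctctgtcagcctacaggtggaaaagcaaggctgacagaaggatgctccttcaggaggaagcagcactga
Rps27rt: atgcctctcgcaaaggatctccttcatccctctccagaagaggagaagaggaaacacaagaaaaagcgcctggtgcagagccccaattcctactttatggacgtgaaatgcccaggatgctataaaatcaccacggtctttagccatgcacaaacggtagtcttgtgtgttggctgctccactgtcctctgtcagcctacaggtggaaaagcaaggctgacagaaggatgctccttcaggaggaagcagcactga
Rps27 held 45148 counts in the control and 33163 in that labelled LysM-cre (648 and 477 FPKM, CPM ratio 0.736 [0.726 to 0.746]). Rps27rt held 1828 and 14088 counts (73.1 and 565 FPKM, CPM ratio 7.72 [7.35 to 8.11]). One row was lower and the other higher by a like number of counts. The pair together held 46976 and 47251 counts, a ratio of 1.01 [0.995 to 1.02] that holds 1. Rps27rt made up 3.89% of the pair in the control and 29.8% in the other library. The 9 further copies of this sequence held 692 and 776 counts and do not offset either row.

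Rplp0 encodes the stalk base protein that anchors the P1 and P2 proteins, and its messenger RNA is a common reference in quantitative PCR. Its row (ENSMUSG00000067274, chr5:115559467-115563727, plus strand) held 50247 counts in the control and 74042 in that labelled LysM-cre (453 and 670 FPKM, log2 ratio 0.56, CPM ratio 1.48 [1.46 to 1.49]). Its processed pseudogene Gm8730 (ENSMUSG00000063696, chr8:102864845-102865798, minus strand) held 36696 and 21561 counts. The first 240 coding bases of both are shown because so few bases can tell them apart. Capitals mark the differing positions, T72C, G138C and T192C, counted from the first coding base with the Rplp0 base first.
Rplp0: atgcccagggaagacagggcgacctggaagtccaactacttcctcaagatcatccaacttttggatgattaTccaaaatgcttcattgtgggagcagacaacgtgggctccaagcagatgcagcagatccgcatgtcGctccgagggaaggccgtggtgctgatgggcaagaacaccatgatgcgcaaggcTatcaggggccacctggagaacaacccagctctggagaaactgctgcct
Gm8730: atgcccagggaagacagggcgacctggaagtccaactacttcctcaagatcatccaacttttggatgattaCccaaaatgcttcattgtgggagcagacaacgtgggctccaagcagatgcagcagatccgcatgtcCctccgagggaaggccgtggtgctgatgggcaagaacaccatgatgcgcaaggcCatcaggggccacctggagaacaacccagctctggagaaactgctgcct
Another copy, Gm9625, held 8140 counts in the control and 5162 in that labelled LysM-cre. All 5 copies summed to 45067 and 26915 counts, lower while the Rplp0 row was higher. With them the log2 ratio of Rplp0 was 0.09 in place of 0.56.

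Rpl29, a small basic protein of the large subunit, had the largest ratio of all members. Its row (ENSMUSG00000048758, chr9:106429454-106431568, plus strand) held 176 counts in the control and 6322 in that labelled LysM-cre (2.32 and 84.2 FPKM, CPM ratio 36.0 [31.0 to 42.0]). The control value was far under that of any other structural member except Rpl21. Its 62 copies held 12940 and 11998 counts, of which Gm13841 (chr5:115801677-115802159, minus strand) held 6276 and 7532 and Gm14036 held 3284 and 834. The first 240 coding bases of Rpl29 and Gm13841 differ by C72A, in capitals.
Rpl29: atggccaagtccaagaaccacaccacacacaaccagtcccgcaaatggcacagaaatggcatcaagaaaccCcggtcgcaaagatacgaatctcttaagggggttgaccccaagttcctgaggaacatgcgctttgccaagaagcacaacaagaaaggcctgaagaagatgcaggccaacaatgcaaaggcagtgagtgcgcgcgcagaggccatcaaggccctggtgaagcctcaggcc
Gm13841: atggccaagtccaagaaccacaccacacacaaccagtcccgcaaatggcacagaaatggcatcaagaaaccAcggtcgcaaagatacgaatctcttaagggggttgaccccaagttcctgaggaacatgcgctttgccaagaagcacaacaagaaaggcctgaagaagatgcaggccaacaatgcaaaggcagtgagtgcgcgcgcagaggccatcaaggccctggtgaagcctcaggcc
The sum with copies held 13116 and 18320 counts, a CPM ratio of 1.40 and a log2 ratio of 0.48. The copies were lower by far fewer counts than the row was higher. The ratio was thus smaller in the sum, but most of the difference in counts stayed. By the ratio of the sums Rpl29 was the second highest structural member after Rpl41.

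Rpl21 and Rps10 were higher on their own rows and nearer to level in the sum, with copies that were higher for Rpl21 and lower for Rps10. Rpl21 (chr5:146832890-146837032, plus strand), a large subunit protein, held 770 counts in the control and 2809 in that labelled LysM-cre (3.38 and 12.4 FPKM, log2 ratio 1.61). Its 77 copies held 40654 and 43636 counts (CPM ratio 1.08 [1.06 to 1.09]), far above those of the gene, and the log2 ratio of the sum was 0.17. Rps10 (chr17:27630418-27635545, minus strand), a small subunit protein known from Diamond-Blackfan anaemia, held 9749 and 17665 counts (63.1 and 115 FPKM, CPM ratio 1.82 [1.77 to 1.86]). Its main copy, Rps10-ps2 (chr16:20822145-20822640, minus strand), held 11866 and 11270 counts, and the first 240 coding bases of both are identical, as shown with no capitals.
Rps10: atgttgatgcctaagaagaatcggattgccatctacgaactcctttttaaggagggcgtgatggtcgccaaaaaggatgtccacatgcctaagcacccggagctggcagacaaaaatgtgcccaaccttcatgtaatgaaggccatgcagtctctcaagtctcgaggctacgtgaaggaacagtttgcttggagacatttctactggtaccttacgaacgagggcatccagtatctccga
Rps10-ps2: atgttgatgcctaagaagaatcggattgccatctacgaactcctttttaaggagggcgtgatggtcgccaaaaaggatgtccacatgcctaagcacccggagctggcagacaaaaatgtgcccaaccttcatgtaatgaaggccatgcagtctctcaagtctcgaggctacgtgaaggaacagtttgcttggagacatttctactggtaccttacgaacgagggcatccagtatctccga
The copies of Rps10 were lower by far less than the gene was higher, and the sum kept a log2 ratio of 0.41.

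Rpl41 kept its difference when the copies were added. It encodes the shortest ribosomal protein, and its coding sequence of 78 bases is printed whole because it is identical in the copy Gm10076 (chr14:105681828-105682211, plus strand), with no capitals.
Rpl41: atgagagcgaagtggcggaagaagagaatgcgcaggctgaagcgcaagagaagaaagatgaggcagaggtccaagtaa
Gm10076: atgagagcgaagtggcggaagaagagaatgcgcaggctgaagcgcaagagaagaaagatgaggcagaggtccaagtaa
The Rpl41 row (ENSMUSG00000093674, chr10:128548114-128549162, minus strand) held 17742 counts in the control and 38546 in that labelled LysM-cre (227 and 495 FPKM, log2 ratio 1.12, CPM ratio 2.18 [2.14 to 2.22]). No other row overlapping it had counts. Its 7 copies were higher as well, at 1531 and 3847 counts, among them Gm10076 at 978 and 2115. The sum had a log2 ratio of 1.14, the only structural member over 2-fold in the sums.

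**Figure D3:**
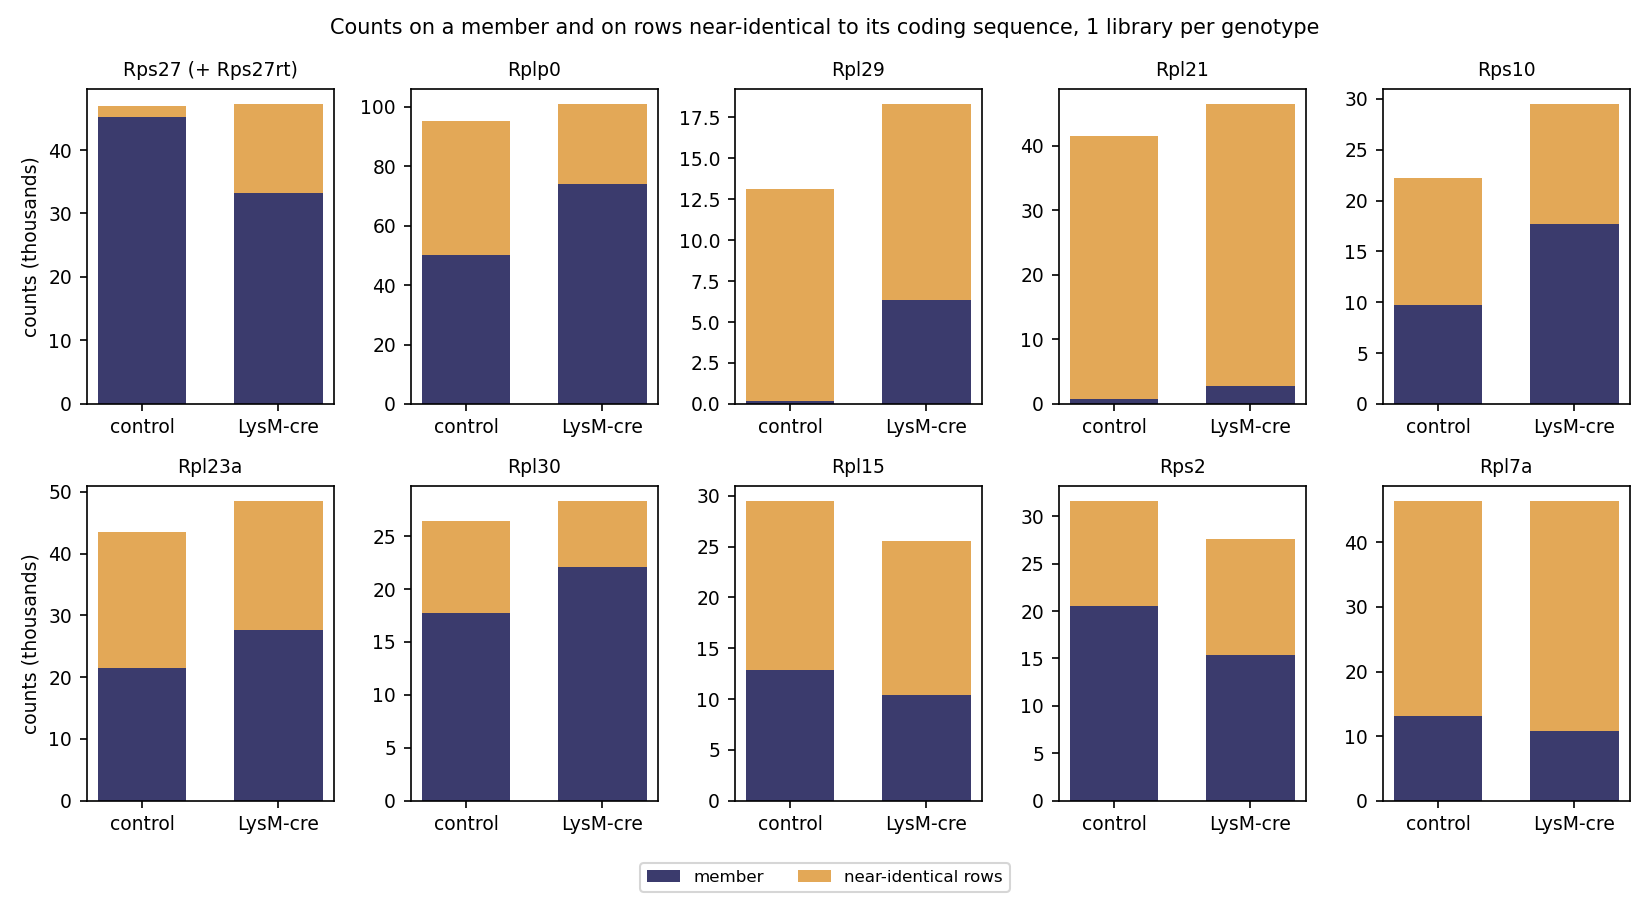
Counts in units of 1000 (y axis, from 0, scaled per panel) on the row of a member (dark) and on its near-identical rows (light) in the floxed control library and the library labelled LysM-cre, for 10 members. The stacked bars of Rps27, Rplp0 and Rpl7a are nearly equal in height while their dark parts differ, and those of Rpl29 and Rps10 are taller in the library labelled LysM-cre.

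Among other members with high ratios, the copies of Rpl23a and Rpl30 were lower in the library labelled LysM-cre and those of Rpl26 and Rps12 higher. Rpl26, which binds the p53 message in addition to its place near the exit tunnel, measured 249 FPKM in the control and 350 in that labelled LysM-cre (CPM ratio 1.40 [1.38 to 1.43]). Its copies held 2104 and 2472 counts, higher like the row, and the log2 ratio was 0.49 alone and 0.47 in the sum. Rpl23a, beside the exit tunnel, stood at 379 and 491 FPKM, with a log2 ratio of 0.37 alone and 0.16 with its 33 copies. Rpl30 stood at 87.7 and 110 FPKM, with 0.32 alone and 0.10 with copies. Rps12, outside the 10 highest and named after its values were seen, stood at 95.0 and 117 FPKM, with 0.30 alone and 0.21 in the sum. Rpl26 alone among these 4 kept its ratio nearly whole.

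Among the members with the lowest ratios, some came nearer to level in the sum with copies and others did not. Rps25 (chr9:44407139-44410427, plus strand), a small subunit protein used by several viral internal ribosome entry sites, was the lowest, at 114 FPKM in the control and 79.2 in that labelled LysM-cre (20421 and 14209 counts, CPM ratio 0.697 [0.682 to 0.712]). Its copies held 1220 and 1191 counts, and the log2 ratio was -0.51 alone and -0.49 in the sum. Rows that overlap Rps25 held 3059 and 2514 counts, and how strand was used in counting is not given. Rpl11, which joins Rpl5 and 5S RNA in a complex that can bind Mdm2, stood at 149 and 116 FPKM, with a log2 ratio of -0.36 alone and -0.37 in the sum. Rpl5, its partner, stood at 187 and 185 FPKM. Of that pair, Rpl11 alone differed by more than a few per cent.

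Rps2, of the messenger RNA entry site, measured 168 FPKM in the control and 126 in that labelled LysM-cre, with a log2 ratio of -0.41 alone and -0.19 with its 51 copies. Rpl15 stood at 78.0 and 62.9 FPKM, with -0.31 alone and -0.20 with copies, of which Rpl15-ps6 held 8301 and 4560 counts. Rpl7a stood at 110 and 91.2 FPKM, with -0.26 alone and 0.01 with its 76 copies. Rpl7a was thus level in the sum, and Rps2 and Rpl15 stayed lower. Rpl18 stood at 76.2 and 64.4 FPKM (-0.24 alone, -0.25 in the sum), and rows that overlap it held 3360 and 3932 counts. Rpl7 stood at 230 and 198 FPKM (-0.21 alone, -0.20 in the sum). These 2 genes, with few copied reads, were lower by about the same on both scales.

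**Figure D4:**
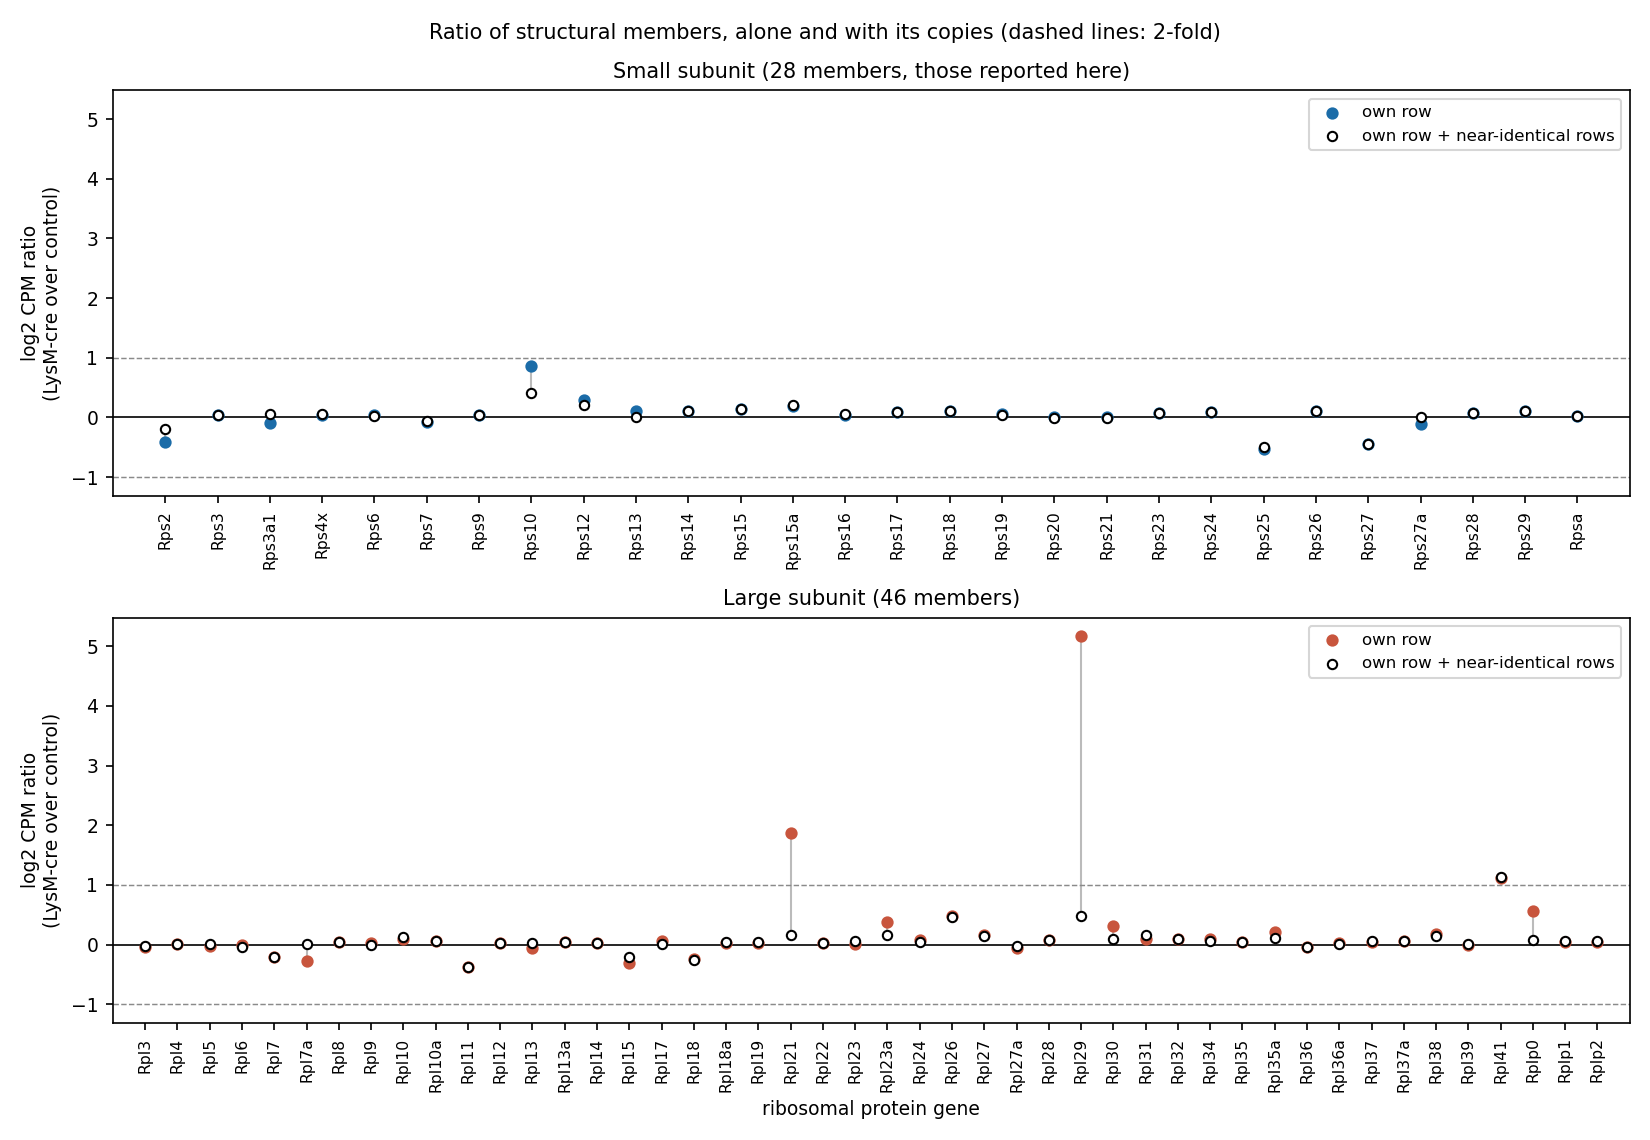
Log2 CPM ratio (library labelled LysM-cre over control, y axis) of 28 of the 31 small (top) and all 46 large (bottom) subunit genes, for the gene's own row (filled) and for the sum with its near-identical rows (open), with Rps27rt not added to Rps27. Rpl29, Rpl21, Rplp0 and Rps10 move far toward 0 when the copies are added, and Rpl41, Rpl26, Rps25 and Rpl11 move little.

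The paralogues and other relatives were mostly far below their parents. Rps27l, a p53-responsive paralogue with 76.1% identity to Rps27 over the coding sequence, measured 25.7 FPKM in the control and 23.6 in that labelled LysM-cre (CPM ratio 0.918 [0.851 to 0.991]). Rpl22l1, 70.2% identical to Rpl22, stood at 21.9 and 17.7 FPKM (CPM ratio 0.807 [0.764 to 0.852]), while Rpl22 stood at 43.4 and 44.2. In this pair the paralogue was lower and the parent level. Rpl36al, 87.9% identical to Rpl36a, stood at 82.7 and 81.0 FPKM, beside 77.6 and 78.7 for Rpl36a. The pair held 16059 and 15998 counts. One copy assigned to Rpl36al, Rpl36a-ps3, held 72 counts in the control and 785 in that labelled LysM-cre.

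The paralogues known from muscle and testis were near absent. Rpl3l, a paralogue of striated muscle, stood at 0.858 and 1.26 FPKM on 95 and 138 counts, beside 242 and 235 FPKM for Rpl3. Rpl39l, the testis relative of Rpl39, had 12 and 4 counts (CPM ratio 0.334 [0.0785 to 1.10]), beside 118 FPKM in each library for Rpl39. Rpl10l, which replaces Rpl10 in male germ cells, had 0 counts in both, which allows up to 0.0504 CPM in the control and 0.0505 in the other library, while Rpl10 stood at 165 and 176 FPKM. In these 3 pairs the paralogue held at most 0.277% of the counts of the pair.

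The remaining relatives are not structural subunits. Rpl7l1, which acts in ribosome assembly, stood at 15.3 and 15.8 FPKM and shares 59.9% of its coding bases with Rpl7. Rps19bp1, which binds Rps19 and is also called active regulator of SIRT1, stood at 5.90 and 7.98 FPKM (429 and 577 counts, CPM ratio 1.35 [1.19 to 1.53]). Its partner Rps19 stood at 73.2 and 76.1 FPKM. Rps23rg1, a retroposed relative of Rps23 by name, had 42 and 43 counts, beside 496 and 524 FPKM for Rps23.

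The members are scattered over the genome, and some sequence features were more frequent in their promoters than in all promoters. They lie on 19 chromosomes, with 14 on chromosome 7 and 1 each on chromosomes 6 and 13, and 30 of them hold 57 small nucleolar RNA rows within their bounds. RefSeq promoters (GRCm38.p6, from 250 bases before to 50 after the start) were found for 57 of the 77 structural members, 67 promoters in all. A run of 8 or more pyrimidines between 10 bases before and 15 after the start was present in 32.8% of them, against 9.49% of all 32851 promoters. The motif CCGGAAG, on either strand anywhere in the 300 bases, was present in 37.3% against 8.86%. Most of the structural promoters thus lacked each feature. Their median longest pyrimidine run in the start window was 5 bases, against 4 in all promoters. The start windows of 4 members are shown, with the longest pyrimidine run in capitals, because they range from a long run (Rpl27a, Rps10) to a short one (Rpl41) and include Rps27.
Rpl27a: cgtgagCTCCTCCCTTTTCCCTTTC
Rps10: gcgcacgCCCCTTCCTTTCCagcct
Rps27: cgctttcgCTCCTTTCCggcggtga
Rpl41: gggccggCTCggaagtgacgacacc
In GRCm38.p6 the windows span chr7:109519185-109519209, chr17:27635230-27635254, chr3:90213634-90213658 and chr10:128549154-128549178, the first on the plus and the others on the minus strand. Their longest runs measure 19, 13, 9 and 3 bases. Annotated starts can be off by some bases, and a match is a description of letters only.

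Most genes that work with the ribosome differed little between the libraries. The ribosomal proteins with other names, which the naming rule leaves out, include Fau, a ubiquitin-like fusion of a small subunit protein (538 and 579 FPKM), and Rack1, a scaffold on the small subunit (155 and 161). Both were above the control, at log2 ratios of 0.10 and 0.05. Of 18 elongation factors and other TOP genes, 13 were higher and 5 lower (median 0.06). The largest differences there were Eef2k, the kinase of elongation factor eEF2 (6.33 and 7.95 FPKM), and Btf3, of the nascent chain complex (103 and 90.9). None of these 18 was at 2-fold. Of 36 initiation factors, 27 were higher and 9 lower (median 0.04). Eif4e, the cap-binding protein, was the one at 2-fold, with 923 counts in the control and 2791 in that labelled LysM-cre (2.29 and 6.97 FPKM, CPM ratio 3.03 [2.81 to 3.27]). Copies of Eif4e were not examined. Eif5, another initiation factor, stood at 34.5 and 28.0 FPKM.

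Most genes that build ribosomes were slightly higher as well. Of 63 ribosome assembly genes, 40 were higher and 23 lower (median 0.04, range -0.36 to 0.18). The lowest was Lsg1, a GTPase of late large subunit maturation (5.32 and 3.93 FPKM), and the highest Riok2, a kinase of small subunit maturation (5.56 and 6.45). Of 13 genes of RNA polymerase I and 5S transcription, 10 were higher and 3 lower (median 0.07), with Polr1d at 11.3 and 13.7 FPKM. The mitochondrial ribosomal proteins had 52 of 78 higher, with a median of 0.07, and 0 at 2-fold.

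Genes of mTOR, S6 kinase and Myc signalling, listed without regard to whether they activate or inhibit, were more often lower. Of the 23 listed, 21 were kept, and 15 were lower and 6 higher (median -0.06). Larp1, which binds TOP messages, measured 28.3 FPKM in the control and 16.6 in that labelled LysM-cre (CPM ratio 0.586 [0.570 to 0.603]). Max, the partner of Myc, stood at 36.6 and 23.4 FPKM, Larp4 at 4.28 and 2.42, and Akt1s1, an mTOR complex subunit, at 7.08 and 4.54. Mtor, Rptor and Rps6kb1 differed less, at log2 ratios of -0.06, -0.19 and -0.10. Myc stood at 13.3 and 13.7 FPKM. No list is more than a description of 2 libraries.

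**Figure D5:**
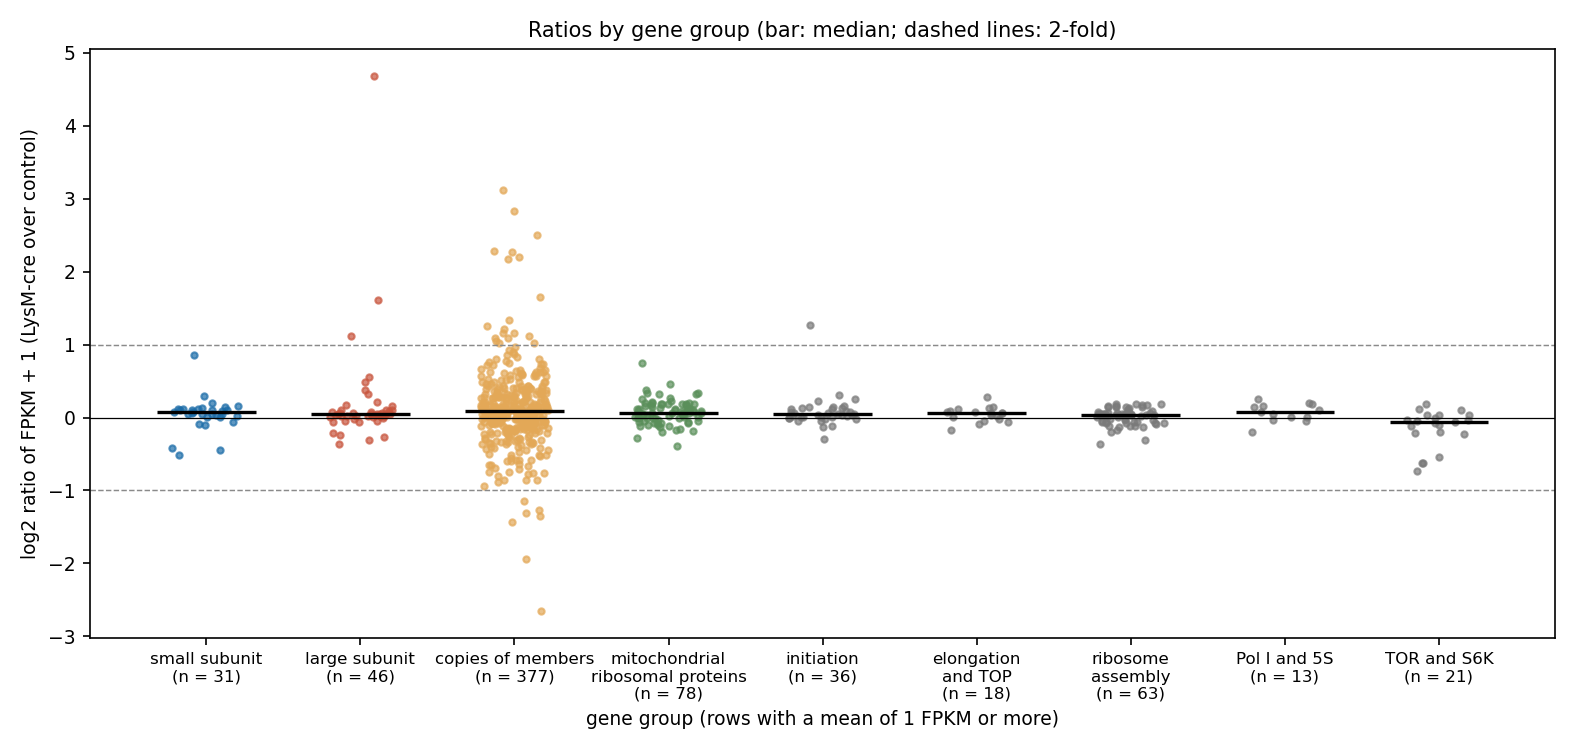
Log2 ratio of FPKM + 1 (library labelled LysM-cre over control, y axis) for each row at a mean of 1 FPKM or more, by gene group (x axis), with bars at the medians. The medians of the structural members (0.07 small, 0.04 large) and of the copies (0.09) lie close to 0. The structural members range from -0.51 to 4.68 and the copies from -2.65 to 3.12, with interquartile ranges of 0.10 and 0.48.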

How the data were processed

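RNA-seq of 2 mouse MDSC libraries, 1 per genotype, was grouped by the genotype label. Per the file headers, 1 deposited table gives a count and an FPKM per gene row and library. The deposited counts are whole numbers, not normalized. The FPKM values are the authors' own, relative to depth and exon length. The submitters' processing notes name HISAT2 2.0.4, StringTie 1.3.4d and cutadapt 1.9, besides edgeR, DESeq2 and the build mm10. The role of each tool, the use of strand and the assignment of multi-mapping reads are not given. An FPKM of 0.0001 stood for a count of 0 and was read as 0. Of the table's other columns, 8 (4 libraries without labels) were not used. Depth was 59506878 and 59393864 counts.

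The log2 ratio compares FPKM + 1 between the libraries, LysM-cre over control, for rows with a mean of 1 FPKM or more. CPM is counts scaled to the library total, with exact intervals of the ratio (scipy 1.17.1). PCR reads without molecular identifiers are not independent molecules, so intervals and limits cover counting error only. Copies were found with blastn 2.17.0 in GENCODE M21 transcripts (55141 of 55401 identifiers matched), each assigned to its best member, at 90% identity over 80% of the coding sequence. Coding transcripts were APPRIS principal, then the longest coding sequence, then the shortest RNA. The members and lists were chosen with earlier results of these data known. The copy rule, the transcript choice and the class of Rps23rg1 were set after the data had been seen.

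Named members are the 10 highest by mean FPKM, the 10 highest and 10 lowest by ratio at a mean of 5 FPKM or more, all relatives with their parents, and all at or next to 2-fold. Up to 4 genes were taken from each list, by absolute ratio. Genes named outside this rule were chosen after their values were seen. Values of some members and list genes are not reported here. The ratios, their intervals and the copy search were tested on simulated counts and copies. The simulation held no shared reads and no spread between animals, so it does not bear on those limits. Alternatives were other pseudocounts, minimums, fold rules and scalings (TMM from edgeR 4.0.16, R 4.3.3), TPM, and sums over related rows. Python 3.11.15, numpy 2.4.6, pandas 2.3.3, biopython 1.88 and matplotlib 3.10.9 were used.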

Additional observations from a re-analysis of the deposited data

How the results depend on the processing

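No paired analysis was possible because each genotype had 1 library, and for the same reason no replicate could be left out. Adding copies at 90% or at 98% identity, chosen after seeing the data, left 2 members at least 2-fold higher in place of 4 (Rpl41, and Rps27rt, to which Rps27 was not added). The median log2 ratio over all members was 0.0290 by TPM against 0.0474, and every scaling moved the median of all rows by under 0.02. The mean in place of the median gave 0.166 for all members, 0.136 for the small and 0.186 for the large subunit. The ratio of the members' share was 1.0537 of protein-coding counts, 1.0642 of summed FPKM and 1.0424 with copies, against 1.0499. No other setting moved a count of members past 1.5-fold, and no member at 2-fold changed sign. With copies at 90%, 14 of the 35 named members moved beyond counting error and 4 came to lie on the other side of 0. Unknown assignment of multi-mapping reads limits the single-row values of the 79 members that have copies with counts. It also limits Rps27, whose coding sequence is identical to that of Rps27rt. Few counts limit Rpl39l and Rps23rg1.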
